A study of Mus musculus with 8 samples.

Results

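The mitosis and G2/M genes are 36 genes whose products carry a cell from the end of DNA replication through division: the cyclins and kinases that start mitosis, the machinery of the spindle and the kinetochores, the checkpoint that watches over them, and the proteins of anaphase and cytokinesis. The list was made with earlier results of these data known. Its genes were read by name, as the probes whose gene name in the array files is one of the 36. All 36 had a probe, and 33 of them were among the 21771 genes tested. Aurkb, Cenpf and Ttk were not, because in no group did any of their probes stand well above background on the 2 arrays together. The genes were followed over 8 one-colour Agilent arrays of small intestine, in 4 groups of 2 arrays. The mice were BALB/cA Jcl females, 8 weeks old.

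The 8 Gy saline, 8 Gy FGF1 and 8 Gy FGF1/CPP-C mice received 8 Gy of carbon ions, the heavy particles of one form of radiotherapy. Before that they had been injected into the peritoneum with saline, with the growth factor FGF1 or with its chimera protein FGF1/CPP-C. The 0 Gy saline mice were given saline and no irradiation. Tissue was taken 4 h after irradiation. The series' design names it as jejunum and gives 12 h for the FGF1/CPP-C pretreatment. No group analysed here received a growth factor without irradiation. Whether arrays of one group stand for separate animals is not given in the labels, so p-values measure the spread between these arrays only.

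In the intestine, cells divide in the crypts, where stem cells and transit-amplifying cells cycle all the time, while the villus epithelium no longer divides. Transcripts of mitosis genes build up late in the cell cycle, largely through the MuvB, B-MYB and FOXM1 complexes that act at their promoters, and DNA damage stops cells before mitosis through checkpoint kinases and through p53, which brings DREAM, a repressing form of the same complex, to those promoters. In mouse intestine, ionising radiation is known to arrest crypt cells within hours. In bulk tissue, fewer cells of a type and less RNA per cell cannot be told apart.

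The 75th percentile of the processed signal was 1735 to 2165 intensity units over the 8 arrays, and between 68.2% and 72.5% of probes stood well above background. Levels below are log2 of the processed signal relative to that percentile of the same array, so that a level of 0 stands at the percentile, and values under a floor of -7 were set to it. Slide 1 carried replicate 1 of every group, and slide 2 carried replicate 2. The labelled tissue was checked against 7 measured enterocyte markers, whose median level was 6.27 to 7.13 on the 8 arrays. Stomach antrum markers, 10 measured of 10 listed, had a median of 3.59 on 8 Gy saline replicate 2, of 2.09 on 8 Gy FGF1 replicate 1 and of 2.19 on 0 Gy saline replicate 1, against -5.81 to -2.19 on the other 5. Pancreatic acinar markers, 10 measured of 12, stood at 2.78 on 8 Gy saline replicate 2 and 5.29 on 0 Gy saline replicate 1, against -4.80 to -1.89 on the other 6. These arrays stand apart in those medians, and the results without them are given beside the counts. Gkn3 and Tff2, of the antrum list, were also high on 8 Gy saline replicate 1 (7.18 and 8.16), 8 Gy FGF1 replicate 2 (7.20 and 8.15) and 0 Gy saline replicate 2 (8.23 and 8.99). Gkn2, of the same list, was low on these arrays, at -5.13, -6.06 and -5.30. Leaving out the antrum-high arrays thus does not remove the difference of FGF1/CPP-C from the other groups in Gkn3 and Tff2. Crypt base stem cell markers, 6 measured of 6, had medians of -0.48 and 0.90 in 8 Gy saline, 0.37 and -0.45 in 8 Gy FGF1 and -0.82 and -0.67 in 8 Gy FGF1/CPP-C, against 0.59 and 0.29 in 0 Gy saline. T cell and intraepithelial lymphocyte markers, 5 measured of 7, had medians of -0.08 and -0.78 in 8 Gy saline, -0.35 and -0.40 in 8 Gy FGF1 and 0.11 and 0.32 in 8 Gy FGF1/CPP-C, against -0.04 and 0.33 in 0 Gy saline. All 5 were lower in 8 Gy saline (median difference -0.58) and in 8 Gy FGF1 (-0.52) than in 0 Gy saline, 3 and 2 of them at an unadjusted p under 0.05, while their median difference was 0.01 in 8 Gy FGF1/CPP-C. Of all 21771 genes, 1624 and 1921 were lower at such a p in 8 Gy saline and 8 Gy FGF1. In limma 0 of the 5 markers passed. The part of these cells in the results below was not tested.

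All 3 irradiated groups had lower levels of the members as a set than 0 Gy saline. The median difference of the 33 genes was -0.80 on the log2 scale in 8 Gy saline, -0.93 in 8 Gy FGF1 and -0.56 in 8 Gy FGF1/CPP-C, against medians of -0.05, -0.05 and -0.02 over all genes tested. In each of the 3 comparisons 32 of the 33 differences were negative, and the exception was Ccnf. Of all genes, 59.7% had a negative difference in 8 Gy saline, 57.5% in 8 Gy FGF1 and 53% in 8 Gy FGF1/CPP-C. With limma fitted to all 8 arrays and Benjamini-Hochberg adjustment over all genes (adjusted p under 0.05), 10 members fell in 8 Gy saline, where 0.409% of all genes passed and 0.0965% passed as lower. Among the FGF1 mice 17 members fell, with 0.896% of all genes passing and 0.285% passing as lower. Under FGF1/CPP-C 12 members fell, with 2.02% of all genes passing and 0.776% passing as lower. No member rose in any of them. The 3 comparisons share the 0 Gy saline arrays and are not independent of each other.

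When the 3 irradiated groups together were set against 0 Gy saline, 21 members fell, with 2.41% of all genes passing and 1.06% passing as lower. Of the 33 members, 30 were lower on every one of the 6 irradiated arrays than on both 0 Gy arrays, as were 12.3% of all genes. The median difference was -0.77, and it was -0.63 on slide 1 and -0.89 on slide 2. The exact permutation test of a single gene cannot go below p = 0.333 for 2 arrays against 2, or p = 0.0714 for 6 against 2.

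**Figure D1:**
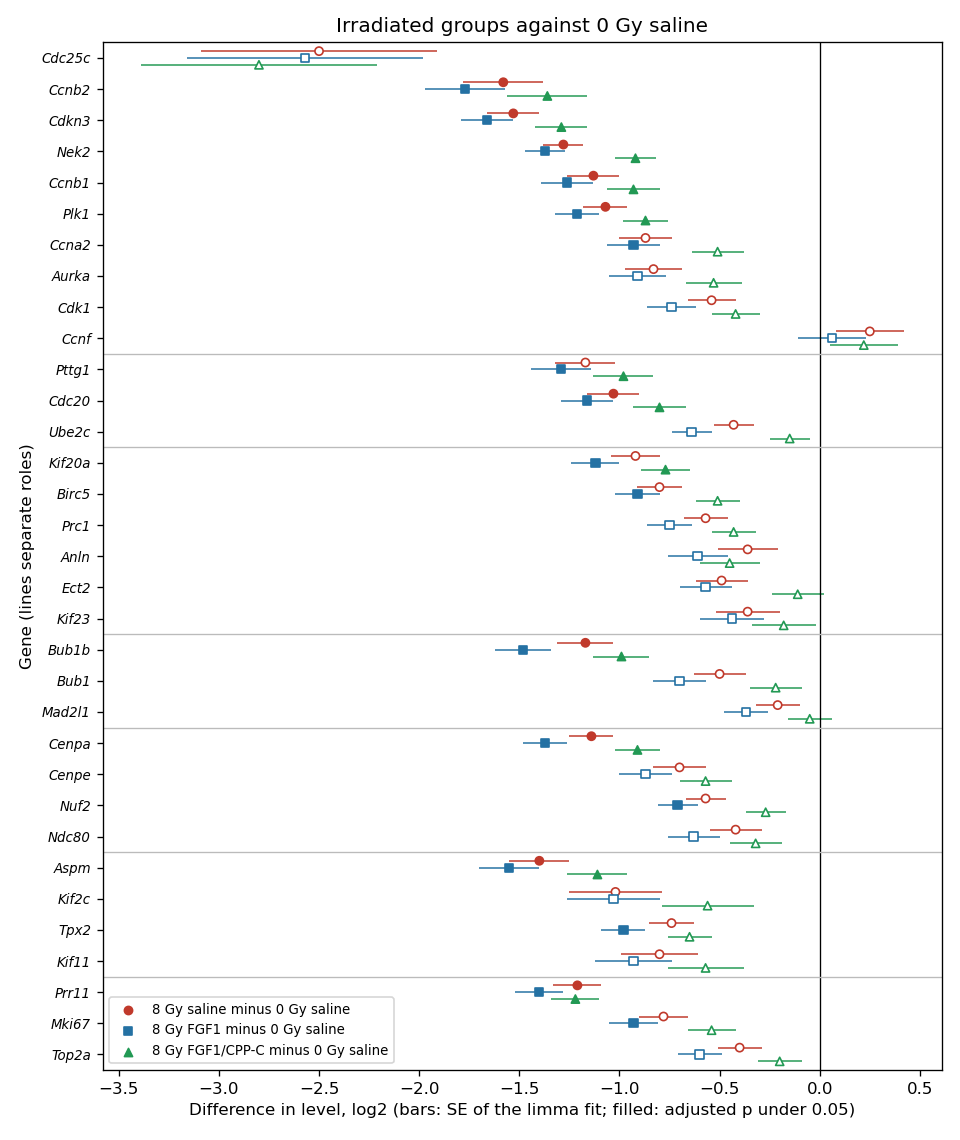
Difference in level (x axis, log2) between each irradiated group and 0 Gy saline for the 33 mitosis and G2/M genes tested (y axis, grouped by role), with bars for the SE of the limma fit and filled symbols for an adjusted p under 0.05. Nearly all symbols lie left of 0, with Cdc25c at -2.80 to -2.50 and Ccnf at 0.06 to 0.25 at the ends.

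The medians were as large without the arrays that stand apart, while the number of genes past the threshold was 0. Without the 3 arrays high in antrum markers, the medians were -0.91 in 8 Gy saline, -1.06 in 8 Gy FGF1 and -0.72 in 8 Gy FGF1/CPP-C, and 0 members passed in limma, which was left with 5 arrays. With the antrum and acinar levels as covariates the medians were -0.87, -1.08 and -0.62 in the same order, and again 0 members passed. The counts in the 4 comparisons with 0 Gy saline did not hold without 0 Gy saline replicate 1, or without replicate 2, either of which leaves that group without a replicate. The median over all irradiated groups was -0.90 without replicate 1 and -0.64 without replicate 2. Replicate 2, on which the antrum median was -2.19 and the acinar median -4.11, was the highest of the 8 arrays for 28 of the 33 members, and 8 Gy FGF1 replicate 2 was the lowest for 26. With the slide as a block, 2 members passed in 8 Gy saline, 11 in 8 Gy FGF1, 7 in 8 Gy FGF1/CPP-C and 14 over all irradiated groups.

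Leaving out an irradiated array moved the counts as well. Every fit with an array left out has fewer than the 4 residual degrees of freedom of the main fit. The counts therefore cannot tell this loss from a part played by the array left out. In 8 Gy saline, 1 member passed without 8 Gy saline replicate 1 and 0 without replicate 2, 1 without either 8 Gy FGF1 array in turn, and 0 without either 8 Gy FGF1/CPP-C array. For 8 Gy FGF1, 0 passed without either FGF1 array, 4 without either FGF1/CPP-C array and 14 without either 8 Gy saline array. For 8 Gy FGF1/CPP-C, 0 passed without either FGF1/CPP-C array, 1 without either FGF1 array and 12 without either 8 Gy saline array. Over all irradiated groups, 8 passed without FGF1 replicate 1, 7 without FGF1 replicate 2, 8 without FGF1/CPP-C replicate 1, 11 without FGF1/CPP-C replicate 2, 16 without 8 Gy saline replicate 1 and 17 without 8 Gy saline replicate 2.

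Of the 33 genes, 10 passed in all 3 comparisons of a single irradiated group with 0 Gy saline, 2 passed in 2 of them, 5 in 1 and 16 in none. Of all genes, 0.0919% passed as lower in all 3, which share the 0 Gy arrays. The 10 were Ccnb1, Ccnb2, Cdc20, Plk1, Bub1b, Nek2, Cenpa, Aspm, Cdkn3 and Prr11. The plot of levels by array shows them as rows in which the 0 Gy symbols lie clear of the 6 irradiated ones.

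**Figure D2:**
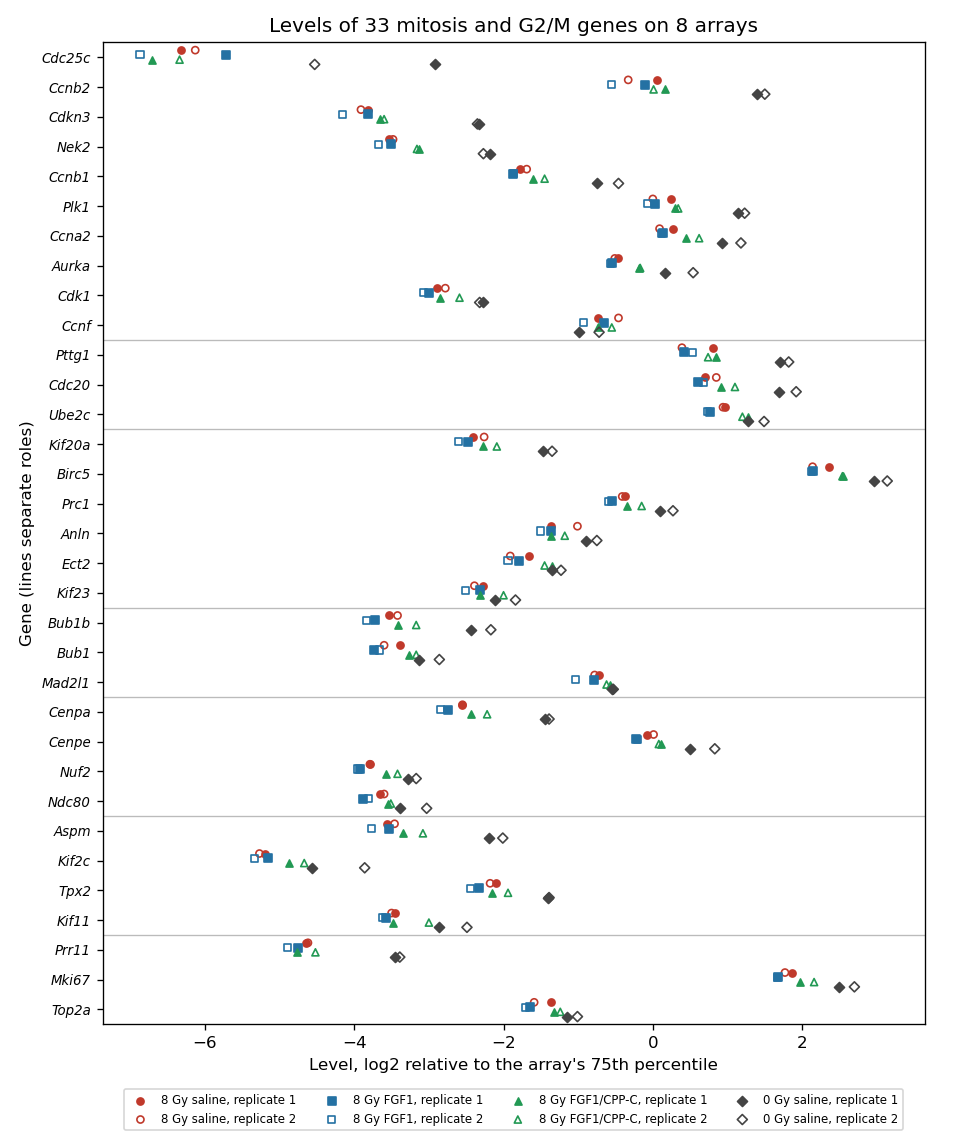
Level of each of the 33 genes tested on each of the 8 arrays (x axis, log2 relative to the array's 75th percentile; y axis, genes grouped by role), with filled symbols for replicate 1 and open ones for replicate 2. For 30 genes both 0 Gy saline symbols lie to the right of all 6 irradiated ones, and Ccnf, Ect2 and Kif23 are the exceptions.

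The cyclins and entry kinases start mitosis. Cyclin B binds the kinase CDK1 to form the complex that drives a cell into mitosis, PLK1 and Aurora A switch that complex on and build the spindle poles, and CDC25C removes the phosphates that hold CDK1 inactive. Of these 10 genes, 5 fell in 8 Gy saline, 6 in 8 Gy FGF1, 5 in 8 Gy FGF1/CPP-C and 8 over all irradiated groups, where their median was -1.08. The medians of the other roles there were -1.0 for anaphase, -0.83 for the spindle, -0.75 for chromosomes and others, -0.62 for kinetochores, -0.53 for cytokinesis and -0.48 for the checkpoint.

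Ccnb2, a cyclin B, had levels of 0.05 and -0.33 in 8 Gy saline, -0.10 and -0.55 in 8 Gy FGF1 and 0.16 and 0.01 in 8 Gy FGF1/CPP-C, against 1.39 and 1.5 in 0 Gy saline. Every irradiated array lay below both 0 Gy arrays. The differences were -1.58 ± 0.20 in 8 Gy saline (SE, n = 2 each, 2.99-fold lower, adjusted p = 0.0481), -1.77 ± 0.20 in 8 Gy FGF1 (3.41-fold lower, adjusted p = 0.0315) and -1.36 ± 0.20 in 8 Gy FGF1/CPP-C (2.56-fold lower, adjusted p = 0.0377). Cdkn3, a phosphatase that acts on CDK1 and CDK2, stood at -3.82 and -3.91 in 8 Gy saline, -3.82 and -4.16 in 8 Gy FGF1 and -3.66 and -3.60 in 8 Gy FGF1/CPP-C, against -2.33 and -2.35 in 0 Gy saline. The unirradiated arrays lay close together, and the groups did not overlap. The falls were 2.88-fold in 8 Gy saline (-1.53 ± 0.13, adjusted p = 0.0213), 3.15-fold in 8 Gy FGF1 (adjusted p = 0.0148) and 2.45-fold in 8 Gy FGF1/CPP-C (adjusted p = 0.0211).

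Nek2, a kinase that loosens the link between centrosomes before the spindle forms, had levels of -3.53 and -3.48 in 8 Gy saline, -3.51 and -3.68 in 8 Gy FGF1 and -3.13 and -3.16 in 8 Gy FGF1/CPP-C, against -2.18 and -2.27 in 0 Gy saline. It had the smallest adjusted p of the members over all irradiated groups (-1.19 ± 0.08, 2.29-fold lower, adjusted p = 0.00572). Its groups did not overlap, and the 2 FGF1/CPP-C arrays were the highest of the irradiated 6. Plk1 stood at 0.24 and -0.00 in 8 Gy saline, 0.03 and -0.07 in 8 Gy FGF1 and 0.30 and 0.34 in 8 Gy FGF1/CPP-C, against 1.14 and 1.23 in 0 Gy saline. It was 2.10-fold lower in 8 Gy saline (adjusted p = 0.0314), 2.31-fold lower in 8 Gy FGF1 (adjusted p = 0.0186) and 1.83-fold lower in 8 Gy FGF1/CPP-C (adjusted p = 0.0298).

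Ccnb1, the other cyclin B, was read from a probe at chr13:101548722-101548781 (mm9, minus strand). Its levels were -1.78 and -1.69 in 8 Gy saline, -1.87 and -1.87 in 8 Gy FGF1 and -1.61 and -1.45 in 8 Gy FGF1/CPP-C, against -0.75 and -0.46 in 0 Gy saline. The fall was 2.19-fold in 8 Gy saline (adjusted p = 0.0381), 2.40-fold in 8 Gy FGF1 (adjusted p = 0.0243) and 1.90-fold in 8 Gy FGF1/CPP-C (adjusted p = 0.0342). The files give the name Ccnb1 to 2 further probes, which they place elsewhere, at chr7:49361734-49361793 and chr7:49362048-49362107 (mm9, minus strand), so it is uncertain which transcript these read. The first was well above background on the 2 unirradiated arrays only, with -6.50 and -6.07 in 8 Gy saline, -6.25 and the floor in 8 Gy FGF1 and -6.24 and -6.31 in 8 Gy FGF1/CPP-C, against -4.46 and -4.49 in 0 Gy saline. The other ranged over -4.59 and -2.79 within 8 Gy saline, against -2.85 and -2.85 in 0 Gy saline, so its groups overlapped.

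Ccna2, the cyclin of S phase and G2, stood at 0.27 and 0.09 in 8 Gy saline, 0.13 and 0.12 in 8 Gy FGF1 and 0.45 and 0.62 in 8 Gy FGF1/CPP-C, against 0.92 and 1.18 in 0 Gy saline. It fell in 8 Gy FGF1 (-0.93 ± 0.13, adjusted p = 0.0482) and over all irradiated groups (-0.77 ± 0.11, 1.71-fold lower, adjusted p = 0.0328). In the other 2 groups it was -0.87 in 8 Gy saline (adjusted p = 0.082) and -0.51 in 8 Gy FGF1/CPP-C (adjusted p = 0.108). Aurka passed only in the comparison of all irradiated groups (-0.76 ± 0.11, adjusted p = 0.0369), as did Cdk1 (-0.57 ± 0.09, 1.48-fold lower, adjusted p = 0.0471). A second Cdk1 probe that passed the background filter gave -0.21 over all irradiated groups and 0.07 in 8 Gy saline, and the remaining one was well above background on no array.

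Only 3 arrays gave Cdc25c a signal well above background, the 0 Gy pair and 8 Gy FGF1 replicate 1. Its levels were -6.32 and -6.13 in 8 Gy saline, -5.72 and -6.87 in 8 Gy FGF1 and -6.71 and -6.34 in 8 Gy FGF1/CPP-C, against -2.92 and -4.53 in 0 Gy saline. Every irradiated array lay below both 0 Gy arrays, but these 2 differed from each other by 1.61. By the fit Cdc25c was 5.65-fold lower in 8 Gy saline (adjusted p = 0.192) and 6.97-fold lower in 8 Gy FGF1/CPP-C (adjusted p = 0.0764), and it did not pass. The differences were -3.40 on slide 1 and -1.60 on slide 2 in 8 Gy saline, and -3.79 and -1.81 in 8 Gy FGF1/CPP-C. These sizes are uncertain because the gene was not well above background on the irradiated side of these comparisons. Its probe was kept only through the 0 Gy pair.

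Ccnf, or cyclin F, a substrate receptor of a ubiquitin ligase and not a partner of a CDK, was the exception among the members. Its levels were -0.74 and -0.46 in 8 Gy saline, -0.65 and -0.93 in 8 Gy FGF1 and -0.73 and -0.55 in 8 Gy FGF1/CPP-C, against -0.99 and -0.72 in 0 Gy saline. The groups overlapped, and the difference over all irradiated groups was 0.18 ± 0.14 (adjusted p = 0.519).

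The anaphase genes act once all chromosomes are attached. CDC20 activates the APC/C, the ubiquitin ligase that ends mitosis by marking cyclin B and securin for destruction, UBE2C is its ubiquitin-conjugating enzyme, and PTTG1 is securin, which keeps sister chromatids together. Cdc20 stood at 0.70 and 0.85 in 8 Gy saline, 0.61 and 0.68 in 8 Gy FGF1 and 0.91 and 1.10 in 8 Gy FGF1/CPP-C, against 1.69 and 1.92 in 0 Gy saline. It was 2.05-fold lower in 8 Gy saline (adjusted p = 0.0481), 2.23-fold lower in 8 Gy FGF1 (adjusted p = 0.0307) and 1.74-fold lower in 8 Gy FGF1/CPP-C (adjusted p = 0.0457), with no overlap.

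Pttg1 had levels of 0.81 and 0.39 in 8 Gy saline, 0.42 and 0.53 in 8 Gy FGF1 and 0.84 and 0.74 in 8 Gy FGF1/CPP-C, against 1.71 and 1.82 in 0 Gy saline. Its 2 arrays of 8 Gy saline were 0.42 apart, the widest gap of any member in that group, and it did not pass there (-1.17 ± 0.15, adjusted p = 0.0569). It fell in 8 Gy FGF1 (2.45-fold, adjusted p = 0.0333) and in 8 Gy FGF1/CPP-C (1.97-fold, adjusted p = 0.0442). Ube2c, in contrast to its partners, passed in none of the comparisons with 0 Gy saline (-0.40 ± 0.09 over all irradiated groups, adjusted p = 0.0723). Its levels were 0.96 and 0.94 in 8 Gy saline, 0.76 and 0.73 in 8 Gy FGF1 and 1.28 and 1.20 in 8 Gy FGF1/CPP-C, against 1.28 and 1.49 in 0 Gy saline. Replicate 1 of FGF1/CPP-C lay level with the lower 0 Gy array.

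The spindle checkpoint holds back anaphase until the kinetochores are attached. Bub1b, which encodes the checkpoint kinase-like protein BUBR1, stood at -3.53 and -3.42 in 8 Gy saline, -3.72 and -3.84 in 8 Gy FGF1 and -3.42 and -3.17 in 8 Gy FGF1/CPP-C, against -2.44 and -2.17 in 0 Gy saline. It fell 2.26-fold in 8 Gy saline (adjusted p = 0.0435), 2.79-fold in 8 Gy FGF1 (adjusted p = 0.0186) and 1.99-fold in 8 Gy FGF1/CPP-C (adjusted p = 0.0365). The other measured checkpoint genes did not pass in any comparison: over all irradiated groups Bub1, a kinase of the same family, was at -0.48 ± 0.11 (adjusted p = 0.0842), and Mad2l1, which encodes the MAD2 inhibitor of CDC20, at -0.21 ± 0.09 (adjusted p = 0.257). Ttk, the kinase MPS1, was not well above background on any array.

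Among the kinetochore and centromere genes, Cenpa, the histone H3 variant that marks centromeres, had levels of -2.56 and -2.55 in 8 Gy saline, -2.74 and -2.84 in 8 Gy FGF1 and -2.43 and -2.22 in 8 Gy FGF1/CPP-C, against -1.44 and -1.39 in 0 Gy saline. It fell 2.20-fold in 8 Gy saline (adjusted p = 0.0239), 2.59-fold in 8 Gy FGF1 (adjusted p = 0.0148) and 1.88-fold in 8 Gy FGF1/CPP-C (adjusted p = 0.0248), and the groups did not overlap. Nuf2, of the NDC80 complex that grips microtubules, passed in 8 Gy FGF1 (-0.71 ± 0.10, adjusted p = 0.0458) and over all irradiated groups (-0.52 ± 0.08, adjusted p = 0.0418), and Cenpe, a kinetochore motor, over all irradiated groups only (-0.71 ± 0.11, adjusted p = 0.0372). Ndc80, the partner of Nuf2, was at -0.46 ± 0.11 there (adjusted p = 0.0915). Cenpf was well above background on 1 array, 8 Gy FGF1 replicate 2.

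Of the spindle motors and spindle proteins, Aspm, which focuses spindle poles, stood at -3.56 and -3.46 in 8 Gy saline, -3.53 and -3.77 in 8 Gy FGF1 and -3.35 and -3.08 in 8 Gy FGF1/CPP-C, against -2.20 and -2.01 in 0 Gy saline. It was 2.65-fold lower in 8 Gy saline (adjusted p = 0.0293), 2.92-fold lower in 8 Gy FGF1 (adjusted p = 0.0186) and 2.16-fold lower in 8 Gy FGF1/CPP-C (adjusted p = 0.0298), again without overlap. Tpx2, the activator of Aurora A on the spindle, had levels of -2.10 and -2.18 in 8 Gy saline, -2.33 and -2.44 in 8 Gy FGF1 and -2.16 and -1.94 in 8 Gy FGF1/CPP-C, against -1.41 and -1.39 in 0 Gy saline. Its groups did not overlap either, and it passed in 8 Gy FGF1 (-0.98 ± 0.11, adjusted p = 0.0317) and over all irradiated groups (-0.79 ± 0.09, adjusted p = 0.0188). The motors Kif11, which pushes spindle poles apart, and Kif2c, which takes microtubules apart, passed in no comparison and were at -0.77 ± 0.16 and -0.87 ± 0.19 over all irradiated groups.

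The chromosomal passenger complex and the cytokinesis proteins act last. Kif20a, a kinesin of the central spindle, had levels of -2.41 and -2.26 in 8 Gy saline, -2.47 and -2.60 in 8 Gy FGF1 and -2.28 and -2.09 in 8 Gy FGF1/CPP-C, against -1.47 and -1.35 in 0 Gy saline. It fell in 8 Gy FGF1 (2.18-fold, adjusted p = 0.0271) and in 8 Gy FGF1/CPP-C (1.71-fold, adjusted p = 0.041), and was at -0.92 ± 0.12 in 8 Gy saline (adjusted p = 0.0537). Birc5, the survivin subunit of the passenger complex, stood at 2.36 and 2.14 in 8 Gy saline, 2.15 and 2.13 in 8 Gy FGF1 and 2.55 and 2.54 in 8 Gy FGF1/CPP-C, against 2.96 and 3.14 in 0 Gy saline. The groups did not overlap, and over all irradiated groups Birc5 fell by 0.74 on the log2 scale (adjusted p = 0.0259), and its 2 other probes gave -0.84 and -0.90. Prc1, which bundles microtubules of the central spindle, fell there by 0.58 (adjusted p = 0.042). The members that place and drive the contractile ring did not pass. Over all irradiated groups Anln was at -0.47, Ect2 at -0.39 and Kif23 at -0.32, and Ect2 and Kif23 overlapped between the groups. Aurkb, the kinase of the passenger complex, was not well above background on any array.

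Of the remaining 3 members, Prr11, a proline-rich protein linked to cell cycle progression, stood at -4.64 and -4.62 in 8 Gy saline, -4.75 and -4.89 in 8 Gy FGF1 and -4.77 and -4.52 in 8 Gy FGF1/CPP-C, against -3.45 and -3.39 in 0 Gy saline. It was 2.31-fold lower in 8 Gy saline (adjusted p = 0.0257), 2.64-fold lower in 8 Gy FGF1 (adjusted p = 0.0148) and 2.34-fold lower in 8 Gy FGF1/CPP-C (adjusted p = 0.0211), with no overlap. Mki67, the Ki-67 antigen that coats mitotic chromosomes and marks cycling cells, had levels of 1.87 and 1.77 in 8 Gy saline, 1.68 and 1.67 in 8 Gy FGF1 and 1.97 and 2.16 in 8 Gy FGF1/CPP-C, against 2.50 and 2.70 in 0 Gy saline. It was lower on every irradiated array and fell in 8 Gy FGF1 (-0.93 ± 0.12, adjusted p = 0.0389) and over all irradiated groups (-0.75 ± 0.10, 1.68-fold lower, adjusted p = 0.0269). Top2a, the topoisomerase that untangles sister chromatids and is already present in S phase, was at -0.40 ± 0.09 (adjusted p = 0.0869).

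Studies of cell cycle transcription have described a pair of short elements in promoters of mitosis genes, the CHR, to which MuvB complexes bind, and the CCAAT box, which NF-Y binds. RefSeq promoter windows (GRCm38.p6, 250 bases before to 50 after the start) were found for 31 of the 36 members, in 33 windows, and Aurkb, Ccna2, Cdc25c, Kif20a and Tpx2 had none. The motifs searched were TTTGAA and TTCGAA for the CHR, the second of which reads the same on both strands, and CCAAT, on both strands. A CHR hexamer was in 26 of the 33 windows (78.8%), against 19.2% of all 32851 windows of the same length. At least 1 CCAAT was in 78.8% of members' windows and in 37.4% of all, at least 2 in 57.6% and in 11.7%, and both kinds of motif in 69.7% and in 7.52%. Of the windows of the DNA replication genes, 16.7% held a CHR hexamer and 63.9% a CCAAT. The motifs were not particular to the members. Of the windows of the other mitosis genes described below, 63.5% held a CHR hexamer, 67.6% a CCAAT and 47.3% both.

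The 4 windows below belong to the genes with the smallest p over all irradiated groups among the 10 that passed in every comparison with 0 Gy saline. They are shown as examples of where the motifs lie, and were chosen by p and not by motif. Capitals mark the CHR hexamers and the CCAAT boxes on either strand, so that one on the reverse strand appears as its reverse complement, and each window runs in the gene's direction.
Nek2, chr1:191821223-191821522, plus strand: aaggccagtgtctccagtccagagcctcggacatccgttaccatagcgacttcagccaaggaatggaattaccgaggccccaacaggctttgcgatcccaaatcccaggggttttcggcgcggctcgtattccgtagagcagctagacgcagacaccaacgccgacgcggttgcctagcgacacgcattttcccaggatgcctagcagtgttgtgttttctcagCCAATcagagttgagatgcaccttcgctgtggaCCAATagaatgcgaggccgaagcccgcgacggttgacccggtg
Cdkn3, chr14:46760291-46760590, plus strand: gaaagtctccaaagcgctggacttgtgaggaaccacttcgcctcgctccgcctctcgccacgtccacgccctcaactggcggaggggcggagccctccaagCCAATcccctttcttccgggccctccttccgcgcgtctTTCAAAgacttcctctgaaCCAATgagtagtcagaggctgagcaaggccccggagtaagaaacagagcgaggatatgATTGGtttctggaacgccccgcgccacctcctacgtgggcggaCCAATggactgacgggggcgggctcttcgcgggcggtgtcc
Prr11, chr11:87108665-87108964, minus strand: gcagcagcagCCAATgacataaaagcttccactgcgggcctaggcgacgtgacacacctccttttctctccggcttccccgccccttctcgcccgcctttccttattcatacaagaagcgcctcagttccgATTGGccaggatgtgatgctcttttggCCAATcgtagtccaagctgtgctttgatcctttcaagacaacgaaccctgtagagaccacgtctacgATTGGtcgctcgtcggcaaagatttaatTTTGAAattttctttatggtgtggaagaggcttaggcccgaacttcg
Cenpa, chr5:30666636-30666935, plus strand: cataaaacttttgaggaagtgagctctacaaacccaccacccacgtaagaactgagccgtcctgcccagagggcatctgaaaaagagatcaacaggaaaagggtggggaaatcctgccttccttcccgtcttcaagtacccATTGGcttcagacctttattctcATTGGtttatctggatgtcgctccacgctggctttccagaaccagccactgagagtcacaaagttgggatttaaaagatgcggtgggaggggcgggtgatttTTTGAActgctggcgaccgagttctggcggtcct
Nek2 has 2 CCAAT and no CHR hexamer in this window, Cdkn3 has 4 CCAAT and 1 CHR hexamer, Prr11 has 4 and 1, and Cenpa has 2 and 1. In Prr11 and Cenpa the CHR hexamer begins at positions 4 and 17 relative to the start, downstream of every CCAAT. In Cdkn3 it begins at -111, downstream of the CCAAT at -149 but upstream of those at -92, -34 and 10.

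The size of the difference was then set beside the motifs within the members. The median difference over all irradiated groups was -0.76 for the 22 measured genes with a CHR hexamer in a window (from -1.57 to 0.18) and -0.74 for the 7 without one (from -1.19 to -0.21). It was -0.88 for the 16 with at least 2 CCAAT and -0.71 for the 13 with fewer. Ccnf, which did not pass, has 2 CHR hexamers and 2 CCAAT in its window, and Top2a, which did not pass, has 4 and 6. These values are descriptions without a test, and a match of letters does not show that a factor binds there.

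**Figure D3:**
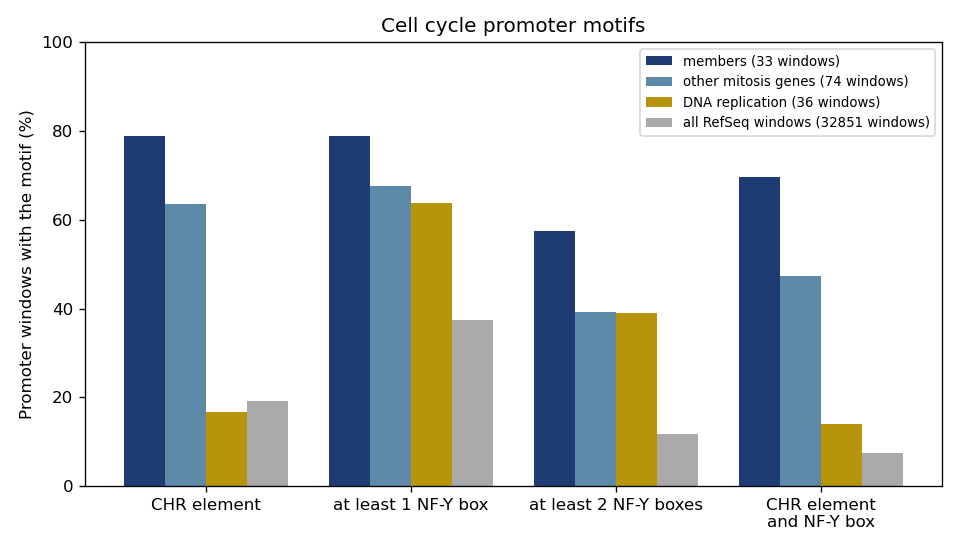
Share of RefSeq promoter windows (y axis, percent) that hold a CHR element, at least 1 NF-Y box (CCAAT), at least 2 of them, or both kinds of motif, for the mitosis and G2/M genes, the other mitosis genes, the DNA replication genes and all windows. The bars of the mitosis and G2/M genes stand at 78.8% for the CHR element and at 69.7% for both kinds. Those of the other mitosis genes stand at 63.5% and 47.3%, and those of all windows at 19.2% and 7.52%.

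The question for the growth factors was whether the irradiated groups differed from each other. Set against 8 Gy saline, all 33 members had a negative difference in 8 Gy FGF1, but it was small, with a median of -0.15 and a range of -0.31 to -0.01. In limma 0 members passed and 0 had an unadjusted p under 0.05. Of all genes 0 passed (0%) and 1.76% had such a p, and 46.1% had a negative difference. Of the members, 19 were lower on both FGF1 arrays than on both 8 Gy saline arrays, as were 7.87% of all genes.

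When 8 Gy FGF1/CPP-C was set against 8 Gy saline, 29 members were higher in the FGF1/CPP-C group and 4 lower, where 56.6% of all genes were higher, with a median of 0.20, against 0.04 over all genes. In limma 0 members passed, where 0.00919% of all genes did, and 6 members were higher at an unadjusted p under 0.05, with 7.35% of all genes so. When it was set against 8 Gy FGF1, 32 members were higher in the FGF1/CPP-C group, as were 53.7% of all genes, with a median of 0.36 (0.27 on slide 1 and 0.48 on slide 2), against 0.02 over all genes. In this comparison too 0 members passed in limma, where 0.0138% of all genes did, and 22 were higher at an unadjusted p under 0.05, as were 5.48% of all genes. The 2 FGF1/CPP-C arrays lay above both FGF1 arrays for 29 of the 33, as for 24.7% of all genes. These 3 comparisons reuse the same arrays.

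The largest of these differences was that of Ube2c, at 0.49 ± 0.10 in 8 Gy FGF1/CPP-C against 8 Gy FGF1 (1.41-fold, adjusted p = 0.283). It is named here for that value. Among the 10 genes that fell in every irradiated group, the difference between these groups was 0.49 ± 0.14 for Bub1b (adjusted p = 0.41), 0.46 ± 0.11 for Cenpa (adjusted p = 0.304), 0.45 ± 0.10 for Nek2 (adjusted p = 0.293) and 0.18 ± 0.12 for Prr11 (adjusted p = 0.728). None of them passed.

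Markers of other cells moved with the FGF1/CPP-C group. All 5 measured T cell and intraepithelial lymphocyte markers were higher on both FGF1/CPP-C arrays than on every array of 8 Gy saline and of 8 Gy FGF1, with median differences of 0.71 and 0.54 in that order, and 5 and 1 of them had an unadjusted p under 0.05. Of all 21771 genes, 5559 and 5384 lay above both arrays of the other group in these 2 comparisons. At such a p 1601 and 1194 of all genes were higher, and 992 and 775 lower. Enterocyte markers had median differences of 0.57 against 8 Gy saline (4 of 7 higher at an unadjusted p under 0.05) and 0.28 against 8 Gy FGF1 (2 of 7), and smooth muscle markers of -0.55 (4 of 6 lower) and -0.25 (0 of 6). Crypt base stem cell markers went both ways. Their median differences were -0.17 (from -1.02 to 0.92) and -0.15 (from -0.82 to 0.60), with 1 of 6 higher at such a p in each and 0 lower. Of these lists 0 genes passed in limma after adjustment. The B cell markers differed on 1 of the FGF1/CPP-C arrays: their median over 4 measured of 5 listed was -2.67 on replicate 1 and -0.34 on replicate 2, against -3.21 to -2.46 on the other 6 arrays. Antrum markers were also lowest on the FGF1/CPP-C arrays, at -4.89 and -5.81, where 7 and 6 of the 10 genes were well above background. In limma 2 genes of the antrum list passed as lower in FGF1/CPP-C in each of these 2 comparisons (smallest adjusted p = 0.000254 in both). Against 8 Gy saline they were the only genes of all tested that passed, and against 8 Gy FGF1 3 genes passed. Gkn3 stood at -1.66 and -1.82 and Tff2 at -6.02 and the floor on the FGF1/CPP-C arrays. On the other 6 arrays Gkn3 was at 7.18 to 8.37 and Tff2 at 8.15 to 8.99. Without replicate 1 of FGF1/CPP-C the median of the members against 8 Gy FGF1 was 0.42, and without replicate 2 it was 0.32. Without the 3 arrays high in antrum markers it was 0.40. The 8 Gy FGF1 array left there, replicate 2, still read Gkn3 at 7.20 and Tff2 at 8.15. This setting thus does not remove the difference in these 2 genes. Others of the antrum list were low on that array, with Gkn2 at -6.06, Muc5ac at -4.54 and Gast at -4.75, while Ctse was at 1.26. The tissue that gave Gkn3 and Tff2 there was not tested. The part of other cells and organs in these differences was not tested.

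**Figure D4:**
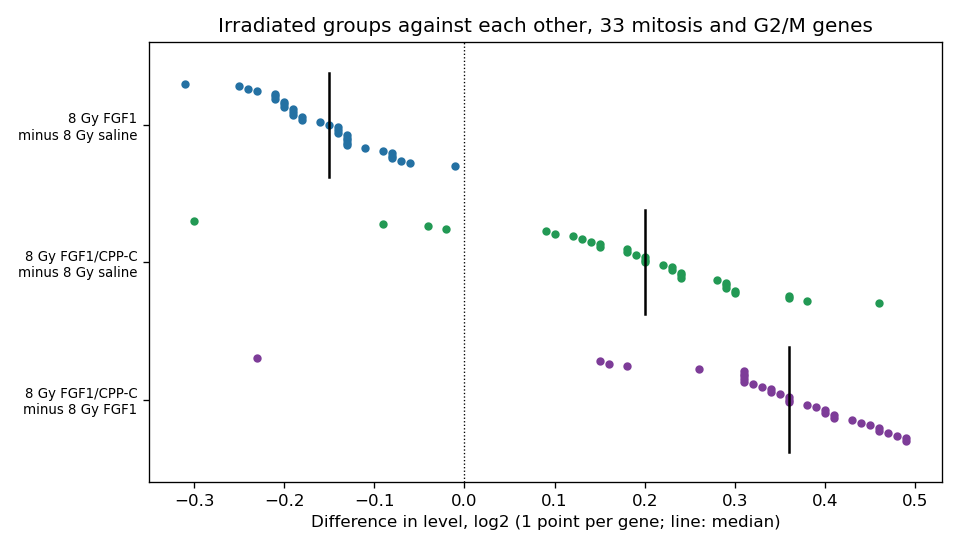
Differences in level (x axis, log2) between irradiated groups for the 33 genes, with 1 point per gene in order of size and a line at the median. The medians lie at -0.15 for 8 Gy FGF1 minus 8 Gy saline, 0.20 for 8 Gy FGF1/CPP-C minus 8 Gy saline and 0.36 for 8 Gy FGF1/CPP-C minus 8 Gy FGF1, and no gene passed in any of them.

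Other genes of mitosis and of its control were read from lists of their own. Of 72 measured further mitosis genes, 12 fell and 4 rose over all irradiated groups, where 1.06% of all genes passed as lower and 1.35% as higher, and the median was -0.20. In 8 Gy saline alone, 1 fell and 1 rose, with a median of -0.24. In 8 Gy FGF1 4 fell and 2 rose (median -0.35), and in 8 Gy FGF1/CPP-C 1 fell and 5 rose (median -0.04). Of all 21771 genes, 21, 62 and 169 passed as lower in these groups and 68, 133 and 270 as higher, in the same order. Racgap1, of the centralspindlin complex, stood at -0.90 and -0.88 in 8 Gy saline, -1.0 and -1.06 in 8 Gy FGF1 and -0.69 and -0.70 in 8 Gy FGF1/CPP-C, against -0.13 and -0.12 in 0 Gy saline, and fell over all irradiated groups (-0.75 ± 0.07, adjusted p = 0.0107). Kif22, a chromosome-bound kinesin (-0.84 ± 0.09, adjusted p = 0.0177), and Knl1, a kinetochore scaffold (-1.24 ± 0.17, adjusted p = 0.0317), fell too. Pimreg passed as lower (adjusted p = 0.0478) and is counted among the 12. It was well above background on 3 arrays only, the 0 Gy pair and 1 array of FGF1/CPP-C, so no size is given. Its probe was kept only through the 0 Gy pair, where it was high, and the call held in 2 of 17 alternatives.

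The 4 mitosis genes that rose went against the members. Gtse1, a microtubule-binding protein of G2 that is itself induced by p53 and restrains it, had levels of -2.74 and -2.13 in 8 Gy saline, -2.48 and -2.32 in 8 Gy FGF1 and -2.44 and -2.24 in 8 Gy FGF1/CPP-C, against -4.90 and -4.99 in 0 Gy saline. It rose 5.86-fold over all irradiated groups (2.55 ± 0.17, adjusted p = 0.00555). Ckap2, a spindle protein, stood at -2.57 and -2.22 in 8 Gy saline, -2.52 and -2.35 in 8 Gy FGF1 and -2.36 and -2.10 in 8 Gy FGF1/CPP-C, against -3.60 and -3.63 in 0 Gy saline, a rise of 2.39-fold (adjusted p = 0.015). Both were higher on all 6 irradiated arrays than on both 0 Gy arrays. Cenpt, of the inner kinetochore (0.54 ± 0.08, adjusted p = 0.0376), and Ncaph, of condensin (0.66 ± 0.10, adjusted p = 0.0386), rose less.

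Of the 20 genes of G2 arrest and p53 targets, 10 rose over all irradiated groups and 8 in 8 Gy saline, where 1.35% and 0.312% of all genes passed as higher. None fell, and the median over all irradiated groups was 0.79. Psrc1, a p53 target that encodes a spindle protein, stood at -2.28 and -2.10 in 8 Gy saline, -2.21 and -2.21 in 8 Gy FGF1 and -2.12 and -1.80 in 8 Gy FGF1/CPP-C, against -4.95 and -5.11 in 0 Gy saline. It rose 7.51-fold (2.91 ± 0.11, adjusted p = 0.00129). Phlda3, a repressor of AKT, rose 15.1-fold (adjusted p = 0.00161), Ccng1, or cyclin G1, 5.79-fold (adjusted p = 0.00555) and Trp53inp1 2.43-fold (adjusted p = 0.00707). Not every gene of the list moved. Mean levels in 8 Gy saline, 8 Gy FGF1, 8 Gy FGF1/CPP-C and 0 Gy saline were 0.74, 0.91, 0.84 and 0.74 for Gadd45a. They were 1.05, 1.26, 1.00 and 1.05 for Sfn and -1.64, -1.79, -1.36 and -1.41 for Wee1. Cdkn1a was higher after irradiation, at 3.68, 3.82, 3.82 and 2.80. These genes are named for their part in G2 arrest, not for their p.

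Neither the subunits and partners of the APC/C nor the factors that transcribe mitosis genes moved past the threshold. Over all irradiated groups 0 of 18 APC/C genes passed in limma, with a median of -0.05, and the smallest p belonged to Anapc16 (0.42 ± 0.08, adjusted p = 0.0605) and Anapc13 (-0.19 ± 0.08, adjusted p = 0.227). Of 16 measured transcription factors and MuvB or DREAM subunits 0 passed, with a median of 0.19, and the smallest p belonged to Tfdp1, a dimer partner of E2F (0.36 ± 0.07, adjusted p = 0.0697), and Nfyb, a subunit of NF-Y (0.35 ± 0.12, adjusted p = 0.172). At an unadjusted p under 0.05, 1 of the APC/C genes was lower and 1 higher, and 1 of the factors was lower and 4 higher, where 11.3% of all genes were lower and 9.31% higher.

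The DNA replication genes, which peak earlier in the cycle, were on balance not lower. Of 38 measured, 4 rose over all irradiated groups in limma and 0 fell, 1 was lower and 17 higher at an unadjusted p under 0.05, and the median was 0.19. Of all genes 1.35% passed as higher there, and 9.31% were higher and 11.3% lower at such a p. Rrm2, the small subunit of ribonucleotide reductase, stood at 1.70 and 1.36 in 8 Gy saline, 1.46 and 1.57 in 8 Gy FGF1 and 1.85 and 1.89 in 8 Gy FGF1/CPP-C, against 0.39 and 0.57 in 0 Gy saline, 2.24-fold higher over all irradiated groups (adjusted p = 0.0131). The licensing factors Cdt1 (0.76 ± 0.09, adjusted p = 0.023) and Cdc6 (0.76 ± 0.11, adjusted p = 0.0343) and Dtl, which targets CDT1 for destruction (0.65 ± 0.09, adjusted p = 0.0324), rose as well. In the plot of the related lists the medians of the members and of the replication genes lie on opposite sides of 0.

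**Figure D5:**
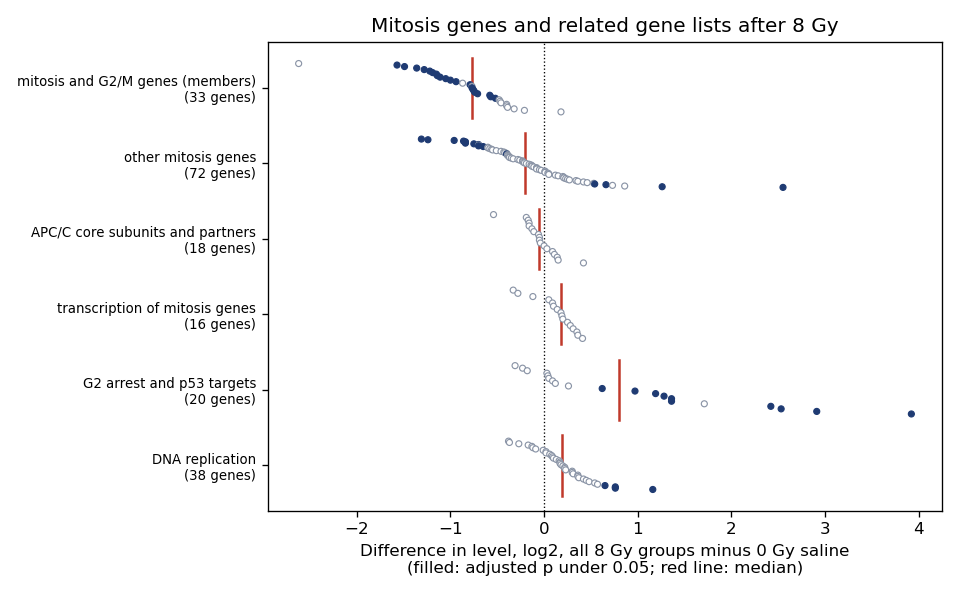
Difference in level (x axis, log2) of all 8 Gy groups minus 0 Gy saline for the members and 5 related gene lists (y axis), with 1 point per gene, filled where the adjusted p was under 0.05, and a red line at each median. The members' median is -0.77, that of the other mitosis genes -0.20, that of the p53 and G2 arrest genes 0.79 and that of the DNA replication genes 0.19.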

How the data were processed

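The deposited files hold 1-colour microarray intensity values, extracted with Agilent Feature Extraction 9.5.3.1 per the submitters' processing notes, with probe coordinates on mm9 per the file headers. The processed signal, spatially detrended per the file headers, was taken as log2 minus the array's 75th percentile, with a floor of -7 chosen after signals at or below 0 were found. Control spots (1377) and outlier spots were dropped, the 43020 other spots were averaged into 39429 probes, and the 27469 probes that some group showed well above background on its 2 arrays were kept. A gene was read from its brightest kept probe. Names came from RefSeq by accession for 28330 probes, by symbol for 2204 and from the files for 8895.

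Groups were compared with limma 3.58.1 (R 4.3.3) by lmFit and eBayes over 4 group means with 4 residual degrees of freedom, and adjusted by Benjamini-Hochberg over 21771 genes. Fits were tested on simulated data. The members and lists were chosen with earlier results of these data known. All members were described. From each other list up to 4 genes per direction past the threshold were named by smallest p, or the 2 of smallest p where none passed. At most 4 promoters were printed. Replicate numbers equal slides, and the replicates' deviations correlated at -0.52 to 0.54 between groups. Antrum and acinar transcripts also differ between replicates, so these values cannot show whether the numbers pair the samples. The main fit used no pairing. The 19 alternative settings, 8 of them without 1 array, included the submitters' value table, whose values equal the processed signal where it has any. Figures were drawn with matplotlib 3.10.9. The number of arrays limits the precision.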

Additional observations from a re-analysis of the deposited data

How the results depend on the processing

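The median of the 33 genes kept its sign under all 19 alternative settings: -0.98 to -0.68 in 8 Gy saline against 0 Gy saline, -1.08 to -0.80 in 8 Gy FGF1, -0.72 to -0.42 in 8 Gy FGF1/CPP-C and -0.90 to -0.64 over all irradiated groups. Between irradiated groups it was -0.27 to -0.13 for 8 Gy FGF1 against 8 Gy saline, 0.12 to 0.26 for 8 Gy FGF1/CPP-C against 8 Gy saline and 0.32 to 0.49 for 8 Gy FGF1/CPP-C against 8 Gy FGF1. Counts of calls did not hold as well, and with 2 arrays per group the cause was not tested. Members past the threshold, in the order 8 Gy saline, 8 Gy FGF1 and 8 Gy FGF1/CPP-C against 0 Gy saline, numbered 2, 11 and 7 with the replicate block, 1, 10 and 4 with no filter on dim probes, and 0, 0 and 0 with only the groups compared in the fit, where fewer arrays give the spread. They numbered 0 in these comparisons and over all irradiated groups without the 3 arrays high in antrum markers and with antrum and acinar levels as covariates, and 2 in 8 Gy saline and 6 in 8 Gy FGF1/CPP-C with the submitters' value table. Leaving out 1 array gave 0 to 1 members in 8 Gy saline, 0 to 14 in 8 Gy FGF1, 0 to 12 in 8 Gy FGF1/CPP-C and 0 to 17 over all irradiated groups.

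Of all genes, 89 passed in 8 Gy saline against 0 Gy saline, and the alternatives gave 136 with normexp, 38 with the value table, 41 with no filter, 0 with only the groups compared, 37 with the replicate block, 147 with trend and robust moderation, and 0 to 44 without 1 array. For 8 Gy FGF1 (195) they gave 311 with normexp, 79 with the value table, 5 with only the groups compared, 76 with the block, 371 with trend and robust, and 0 to 172 without 1 array. For 8 Gy FGF1/CPP-C (439) they gave 121 with the value table, 265 with no filter, 10 with only the groups compared, 178 with the block, 701 with trend and robust, and 11 to 849 without 1 array. Over all irradiated groups (525) they gave 161 with the value table, 248 with the block, and 1 to 611 without 1 array. Without the 3 antrum-high arrays 0 genes passed in each of these, and with covariates 0, 0, 1 and 0. Between 8 Gy FGF1 and 8 Gy saline (0) the mean of probes gave 2, and leaving out 1 array 0 to 1. When 8 Gy FGF1/CPP-C was set against 8 Gy saline (2), quantile normalisation gave 9, normexp 4, 0 with the value table, no filter 9, the filter on all 8 arrays 1, the mean of probes 7, only the groups compared 0, no antrum-high arrays 0, covariates 1, and leaving out 1 array 2 to 4. For 8 Gy FGF1/CPP-C against 8 Gy FGF1 (3) the same settings gave 11, 10, 0, 9, 1, 11, 0, 0, 0 and 2 to 5, and trend and robust moderation 8.

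Signs turned only in values that had not passed. Ccnf, positive in the report, was -0.02 in 8 Gy saline, -0.21 in 8 Gy FGF1 and -0.05 over all irradiated groups without the antrum-high arrays, and in 8 Gy FGF1 -0.19 with covariates and -0.07 to 0.20 without 1 array, negative without FGF1 replicate 1 or 0 Gy saline replicate 1. In 8 Gy FGF1/CPP-C against 0 Gy saline, Nfyb was -0.01 without 0 Gy saline replicate 2 and Mad2l1 0.02 with covariates. In 8 Gy FGF1 against 8 Gy saline, Ccnb2 was 0.04 and Cdkn3 0.04 without FGF1 replicate 2, and the range of Cdkn3 without 1 array was -0.30 to 0.04. In 8 Gy FGF1/CPP-C against 8 Gy saline, Prr11 was 0.02 with quantile normalisation, 0.02 with normexp, 0.08 with covariates and -0.14 to 0.11 without 1 array, positive without FGF1/CPP-C replicate 1.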
